A study of Mus musculus with 14 samples.

Results

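The 34 genes described here make, regulate and move cholesterol, out of 51626 gene symbols listed for the newborn mouse cortex. They were chosen by name from a list drawn up with earlier results of the same libraries known, and for each of them the deposited transcript values were summed per gene symbol in all 3 tables. Of the 34, 18 encode steps of synthesis (8 from acetyl-CoA to squalene, 10 from squalene to cholesterol), 6 regulate the pathway, 8 transport, store or clear cholesterol, and 2, Mmab and Ggps1, sit on side branches. All 34 passed the minimum mean of 1 FPKM in both pull-down comparisons and 33 passed it in frontal cortex. There the exception was Mvd, mevalonate diphosphate decarboxylase, which was listed at 0 in all 8 libraries. In the pull-down tables Mvd stood between 6.55 and 13.7 FPKM, and a listed 0 can be a failed estimate, so nothing is said of its level in frontal cortex.

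Cholesterol does not cross from blood into brain, so the brain makes its own, first in neurons and progenitors and later mostly in glia. Synthesis starts from acetyl-CoA, passes through mevalonate and squalene, and closes and trims the sterol ring. When sterol is scarce, SCAP carries the SREBP transcription factors to the Golgi, where they are cut free and switch on most synthesis genes together, while INSIG proteins hold SCAP back when sterol is plentiful. When oxysterols rise, liver X receptors switch on exporters such as ABCA1 and ABCG1, so synthesis and export genes often move in opposite directions.

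RNA was sequenced in 14 libraries from cortex at postnatal day 0.5. Frontal cortex libraries came from 4 wild type mice of strain C57BL6/J and from 4 mice on that background with Auts2 exon 15 floxed on both alleles and deleted by EMX1-cre (cKO). Emx1 drives Cre in the progenitors of cortical excitatory neurons and glia, so cells from other lineages in the tissue keep the gene. For the RNA immunoprecipitation (RIP), cortex of pooled neonates of strain C57BL6/J was split into matched trios, A and B, of pull-down with an AUTS2 antibody raised to its C terminus, pull-down with control IgG, and 10% input. No floxed controls without Cre were analysed here. Values are FPKM, fragments scaled to transcript length and to the mapped total. With no read counts beside them, the depth behind a value is unknown and counting error cannot be stated. As a check of the labels, Auts2 stood at 29.8 to 35.2 FPKM in the 4 cKO libraries and at 87.7, 92.2, 55.9 and 60.2 FPKM in wild type 1 to 4, a log2 difference of -1.13 (limma, adjusted p = 0.0237). Summed neuronal markers reached 1781 to 2006 FPKM in frontal cortex with Tubb3 listed at 0 throughout, while choroid plexus and meningeal markers summed to at most 1.06 FPKM.

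Promoter sequence is shown for 4 of the genes. Hmgcs1, an early step of the mevalonate branch, is the only member whose listed window matched the sterol regulatory element searched for. The others are Mvk, whose window overlaps that of Mmab, Insig1, a classical sterol-responsive gene, and Abca1, the exporter. Each line gives the RefSeq window of 250 bases before to 50 after the start of transcription on the gene's own strand (GRCm38.p6). Capitals mark the sterol regulatory element searched for, TCACNCCAC, and the NF-Y box CCAAT, or ATTGG where the box lies on the other strand.
Hmgcs1, chr13:119690101-119690400, plus strand: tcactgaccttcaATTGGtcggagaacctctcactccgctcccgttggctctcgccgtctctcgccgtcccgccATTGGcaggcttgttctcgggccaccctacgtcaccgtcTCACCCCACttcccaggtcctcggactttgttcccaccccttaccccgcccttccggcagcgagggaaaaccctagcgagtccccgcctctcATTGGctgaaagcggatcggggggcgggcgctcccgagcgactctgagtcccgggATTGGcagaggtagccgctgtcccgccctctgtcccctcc
Mvk, chr5:114444019-114444318, plus strand: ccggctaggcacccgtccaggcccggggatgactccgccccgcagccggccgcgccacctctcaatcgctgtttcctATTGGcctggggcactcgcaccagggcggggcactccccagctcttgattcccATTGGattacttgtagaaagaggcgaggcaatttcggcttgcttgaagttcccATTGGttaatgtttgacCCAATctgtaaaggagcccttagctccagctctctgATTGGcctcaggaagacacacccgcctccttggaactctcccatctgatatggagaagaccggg
Insig1, chr5:28071162-28071461, plus strand: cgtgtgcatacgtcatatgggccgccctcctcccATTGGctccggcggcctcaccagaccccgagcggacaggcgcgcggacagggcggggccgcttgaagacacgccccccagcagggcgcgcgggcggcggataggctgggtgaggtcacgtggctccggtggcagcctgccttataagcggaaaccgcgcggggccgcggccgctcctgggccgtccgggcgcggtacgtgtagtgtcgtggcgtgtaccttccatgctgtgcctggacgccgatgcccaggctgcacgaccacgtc
Abca1, chr4:53159846-53160145, minus strand: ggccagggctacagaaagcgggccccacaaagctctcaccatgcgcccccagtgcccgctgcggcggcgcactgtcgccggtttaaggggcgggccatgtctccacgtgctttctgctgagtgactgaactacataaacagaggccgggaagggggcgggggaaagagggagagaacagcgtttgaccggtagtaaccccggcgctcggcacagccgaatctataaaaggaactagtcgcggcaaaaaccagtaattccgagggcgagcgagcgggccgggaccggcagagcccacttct

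Windows were listed for 28 of the 34 genes, 38 windows in all, and none for Sqle, Fdps, Fdft1, Stard4, Abcg1 and Npc1. The exact letters of the sterol regulatory element searched for were found in the window of Hmgcs1 alone, and in 1.24% of all 32851 mouse promoters. The NF-Y box was more widespread: 77.8% of the 18 synthesis windows held at least 1, against 37.4% of all promoters and 42.9% of the 7 handling windows. Some genes have several windows, such as Apoe, whose windows held no box. By gene, 14 of 15 synthesis genes and 3 of 5 handling genes had a box, against 11096 of all 27025. Hmgcs1 and Nsdhl held 4 boxes each and Mvk and Mmab 5 each. The windows of Mvk and Mmab share 259 bases, so shared boxes are counted for both. In all promoters, 1.06% held 4 or more, and 1.70% did among the promoters of genes tested in frontal cortex. GGGCGG, the Sp1 box, was in 83.3% of synthesis windows and in 35.7% of all promoters, but in 63.3% of the promoters of genes tested in frontal cortex. For the liver X receptor element, only the exact repeat of AGGTCA and AGGTCA set 4 bases apart was searched for. It was in none of the 38 windows, Abca1's included, and in 0.0152% of all promoters. In the 12444 promoters of genes tested in frontal cortex it was found in 0. All motifs were read on both strands and counted separately even where they overlap, and each match is a match of letters, not a measured site. Variant letters and sequence outside the windows were not searched. A missing match, as in Abca1, therefore does not show that a gene lacks the element.

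In frontal cortex, the synthesis genes stood slightly higher in cKO than in wild type, and the handling genes did not shift as a group. All 17 synthesis genes with values had a positive log2 difference, from 0.14 (Fdps and Sc5d) to 0.57 (Idi1), with a median of 0.30 against 0.0013 for all 12786 genes tested. The 8 handling genes had a median of 0.01, with 5 of 8 positive. No single member passed the test: 0 of 33 were called with limma at an adjusted p under 0.05, where 0.0235% of all genes were. At an unadjusted p under 0.05, 13 members were higher in cKO, 11 of them synthesis genes, where 4.57% of all genes were, and 1 was lower, where 3.34% were. The genes were listed with these values known, so the counts describe the list and support nothing. In a bulk sample, fewer cells of a type and less RNA per cell cannot be told apart.

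**Figure D1:**
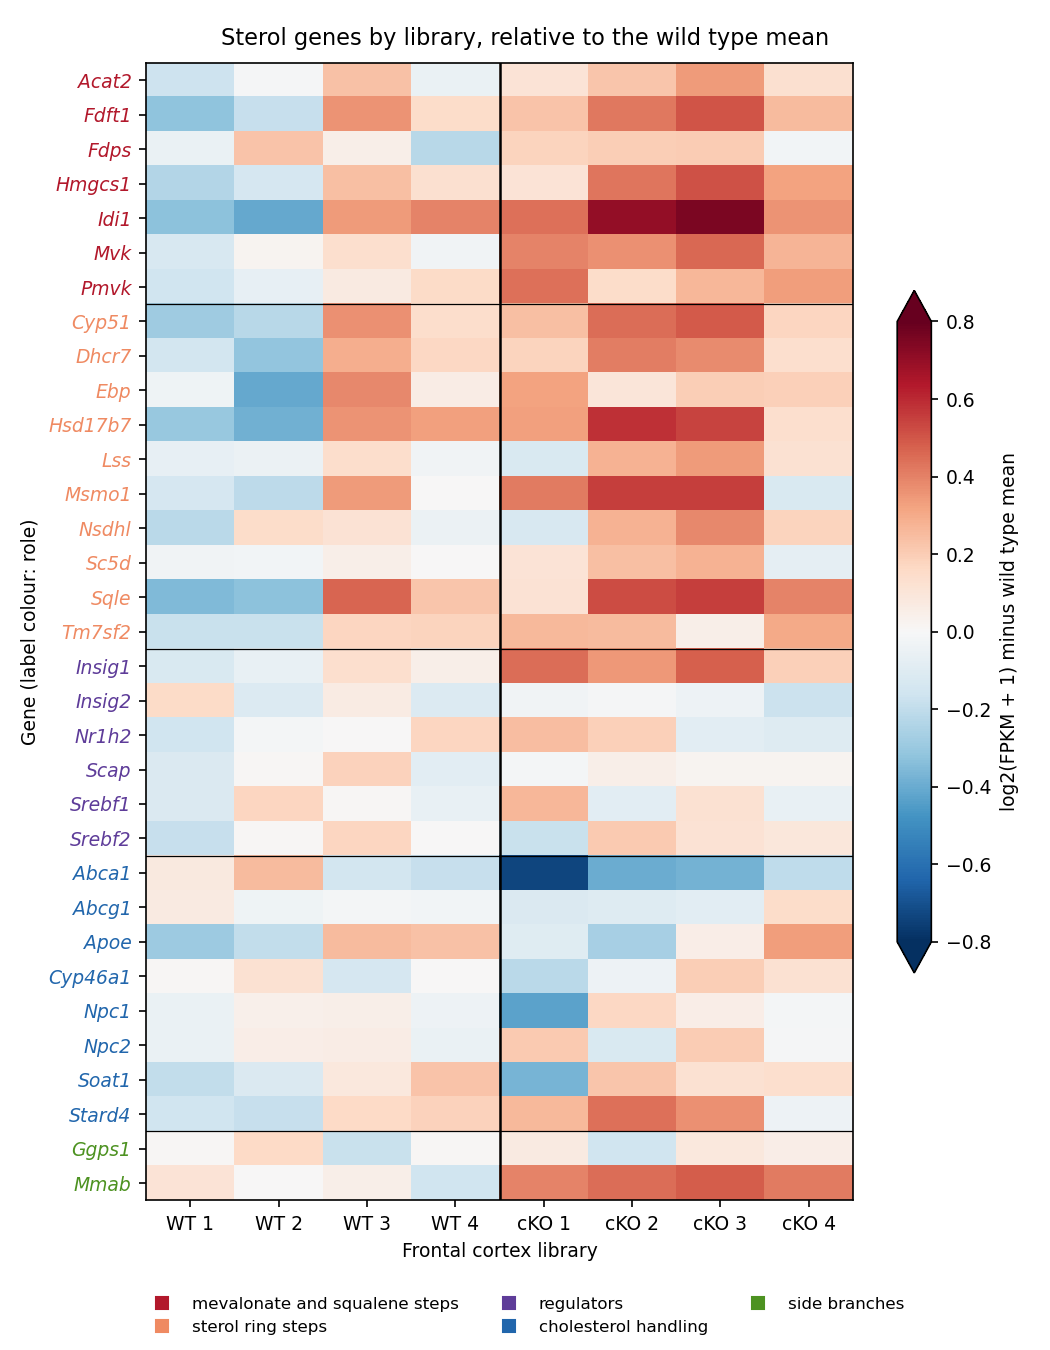
Each row is a gene and each column a frontal cortex library. Colour gives log2(FPKM + 1) minus the gene's wild type mean (red higher, blue lower), and label colour gives the gene's role. Most synthesis rows are red across the 4 cKO columns and blue in wild type 1 and 2, with wild type 3 and 4 in between, and Abca1 runs the other way.

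The 3 genes with the smallest p were Mmab, Mvk and Insig1. Mmab, an adenosyltransferase of vitamin B12 metabolism rather than a sterol enzyme, stood at 8.99, 9.35, 9.60 and 9.11 FPKM in cKO 1 to 4 and at 7.18, 6.61, 6.83 and 5.78 FPKM in wild type 1 to 4. All 4 cKO libraries lay above all 4 wild type ones, with means of 9.26 ± 0.27 and 6.60 ± 0.60 (SD, n = 4 each), and the log2 difference was 0.44 ± 0.09 (SE) with an adjusted p of 0.425 by limma. Mvk, mevalonate kinase, stood at 17.8, 17.4, 18.7 and 16.3 FPKM in cKO and at 12.1, 13.5, 14.7 and 13.1 FPKM in wild type. Here too the groups did not overlap, and the log2 difference was 0.37 ± 0.08 (limma, adjusted p = 0.425). Insig1, which retains SCAP in the endoplasmic reticulum and is itself an SREBP target, stood at 32.1, 29.9, 32.8 and 26.8 FPKM in cKO and at 21.4, 22.3, 25.6 and 24.1 FPKM in wild type. Its groups were also apart, though cKO 4 and wild type 3 lay close, at a log2 difference of 0.37 ± 0.08 (limma, adjusted p = 0.517). Members higher in cKO without overlap were these 3, where 2.65% of all genes were.

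The mevalonate steps had a median log2 difference of 0.34 over 7 genes and 6 of them had an unadjusted p under 0.05. Idi1, which isomerises isopentenyl diphosphate, had the largest difference of the 33, with 12.1, 14.7, 15.3 and 11.4 FPKM in cKO and 6.68, 6.26, 11.2 and 11.7 FPKM in wild type. Wild type 1 and 2 were low and wild type 3 and 4 matched the lower cKO libraries, and the log2 difference was 0.57 ± 0.18 (limma, adjusted p = 0.628). Pmvk, phosphomevalonate kinase, stood at 30.5, 24.7, 26.9 and 28.2 FPKM in cKO and at 19.8, 21.2, 23.3 and 24.8 FPKM in wild type, a log2 difference of 0.30 ± 0.09 (limma, adjusted p = 0.628). Its highest wild type library was just above its lowest cKO library. Hmgcs1, which condenses acetyl units into HMG-CoA, was the most abundant member per length, at 226 to 299 FPKM in cKO and 178 to 249 FPKM in wild type. Fdft1, squalene synthase, and Acat2, the thiolase that starts the pathway, had log2 differences of 0.35 and 0.20. Fdps, farnesyl diphosphate synthase, differed least of the mevalonate steps, at 101 ± 7.23 FPKM in cKO and 91.7 ± 12.2 in wild type.

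The sterol ring steps had a median of 0.25 over 10 genes, all positive, and 5 of them had an unadjusted p under 0.05. Those were Sqle, squalene epoxidase (0.40), Hsd17b7, a sterol ketoreductase (0.40), Msmo1, the methyl sterol oxidase (0.35), Cyp51, lanosterol demethylase (0.34), and Dhcr7, the reductase mutated in human Smith-Lemli-Opitz syndrome (0.28). Tm7sf2, Ebp, Nsdhl, Lss and Sc5d, which reduce, isomerise, decarboxylate, cyclise and desaturate the sterol, had log2 differences from 0.14 to 0.22. Their groups overlapped, as did those of every ring gene.

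**Figure D2:**
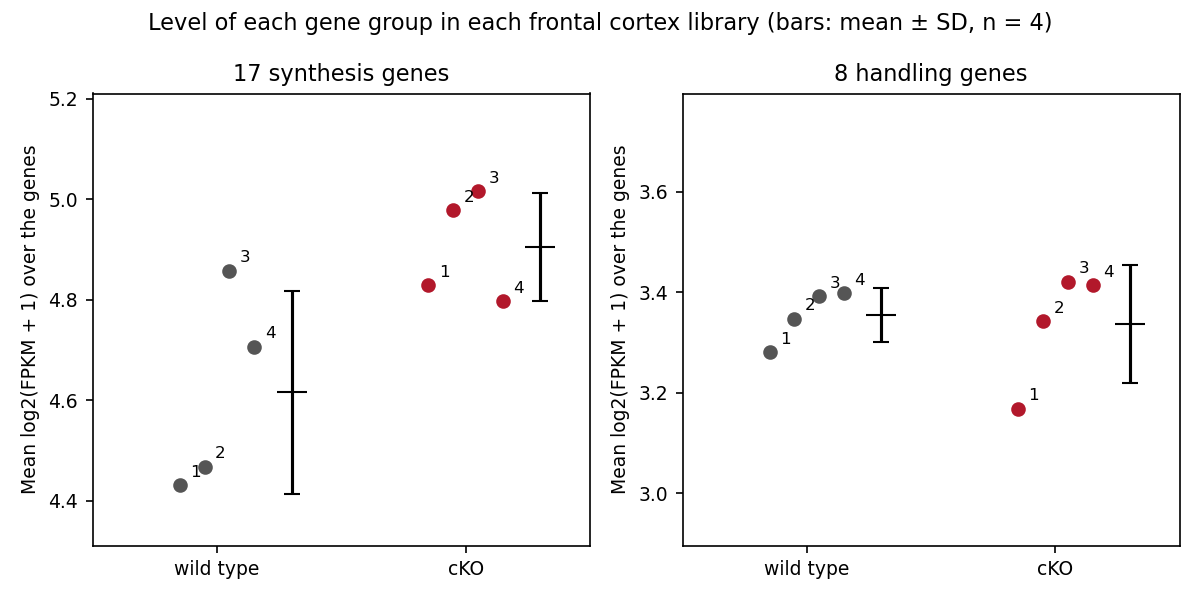
Each point is a frontal cortex library, numbered by replicate, and gives the mean log2(FPKM + 1) over the 17 synthesis genes (left) or the 8 handling genes (right); bars are the mean ± SD of 4 libraries and both axes span the same range. Synthesis runs from 4.43 to 4.86 in wild type and from 4.80 to 5.02 in cKO, while handling spans 3.28 to 3.40 and 3.17 to 3.42.

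Averaged over the 17 synthesis genes, log2(FPKM + 1) was 4.43, 4.47, 4.86 and 4.71 in wild type 1 to 4 and 4.83, 4.98, 5.02 and 4.80 in cKO 1 to 4. The cKO libraries lay above wild type 1, 2 and 4, but cKO 1 and cKO 4 lay below wild type 3. Set against the handling genes of the same library, the synthesis mean was higher by 1.15, 1.12, 1.47 and 1.31 in wild type and by 1.66, 1.64, 1.60 and 1.38 in cKO, so the groups also overlapped on this scale, through cKO 4 and wild type 3. Wild type 1 and 2 were the lowest libraries. Both lay below wild type 3 and 4 in 13 of 17 synthesis genes, or 76.5%, against 29.6% of all genes, and both lay below all 6 other libraries in 11 of 17, or 64.7%, against 15.1%. Across all genes, wild type 1 and 2 correlated at r = 0.993 with each other and at 0.980 to 0.987 with the other 6 libraries. The library cKO 1 stood as far from the rest, at 0.980 to 0.986 with all 7 others, while cKO 2 to 4 and wild type 3 and 4 correlated at 0.992 to 0.994 among themselves. Wild type 1 and 2 also had the most Auts2. By Xist, sex was uneven between the groups: it stood at 212, 214, 250 and 0.39 FPKM in cKO 1 to 4 and at 0.10, 217, 0.40 and 0.09 FPKM in wild type 1 to 4. With Xist state as a covariate the synthesis median was 0.33, with 17 of 17 positive and 9 at an unadjusted p under 0.05. With wild type 3 and 4 alone as the control, a choice made after seeing the data, the synthesis median fell to 0.11, with 16 of 17 positive and 2 at an unadjusted p under 0.05, and all 4 cKO libraries lay above both wild type libraries in 1 of 17. Left out one at a time, wild type 1, wild type 2, cKO 2 and cKO 3 took the 11 genes at that threshold to 4, 5, 5 and 5. Wild type 3, wild type 4, cKO 1 and cKO 4 took them to 13, 10, 11 and 11. All 17 stayed positive under each of the 8 omissions. Counts over all genes moved too. At that threshold by limma stood 1011 of 12786 genes in the main test, 1306 with Xist state and 356 with wild type 3 and 4 alone. Without wild type 1, wild type 2, cKO 2 and cKO 3 they were 489, 478, 874 and 843. Without wild type 3, wild type 4, cKO 1 and cKO 4 they were 1527, 1601, 1079 and 744.

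The other 5 regulators had log2 differences near 0. Srebf2, the main SREBP of sterol synthesis, stood at 48.6 ± 5.49 FPKM in cKO and 46.5 ± 4.77 in wild type. Srebf1, whose product favours fatty acid genes, Scap, the SREBP escort, and Nr1h2, liver X receptor beta, had log2 differences of 0.06, 0.02 and 0.06. Insig2, which encodes the other INSIG protein, was the one regulator below 0, at -0.06. They had adjusted p-values of at least 0.828 by limma.

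Among the handling genes, Abca1, which exports cholesterol to apolipoproteins, ran opposite to synthesis. It stood at 4.16, 5.51, 5.60 and 6.46 FPKM in cKO 1 to 4 and at 8.04, 9.23, 6.73 and 6.55 FPKM in wild type 1 to 4. The groups were apart, but cKO 4 and wild type 4 by less than 0.1 FPKM, and the log2 difference was -0.43 ± 0.13 (limma, adjusted p = 0.628). Wild type 1 and 2, low in synthesis genes, were high in Abca1. No other member was lower in cKO without overlap, where 1.76% of all genes were. Its partner in export Abcg1 differed by -0.04, and Apoe, the lipoprotein that carries brain cholesterol, stood at 61.1 ± 11.2 FPKM in cKO and 60.9 ± 12.1 in wild type. Stard4, a sterol carrier that SREBP2 induces, was the handling gene with the largest positive value, a log2 difference of 0.25 ± 0.13 (limma, adjusted p = 0.641). The lysosomal exporters Npc1 and Npc2, the esterifying enzyme Soat1 and the neuronal cholesterol hydroxylase Cyp46a1 had differences from -0.06 to 0.07.

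Mvk and Mmab lie head to head on chromosome 5 (GRCm38), Mmab at 114431034 to 114444060 on the minus strand and Mvk at 114444269 to 114460591 on the plus strand, with 208 bases between their starts. Their promoter windows share 259 bases, and each window holds 5 NF-Y boxes. Both genes lie 17.0 Mb from Auts2, the engineered locus. Of 398 tested genes within 20 Mb of Auts2, 7.79% had an unadjusted p under 0.05 (12 higher and 19 lower in cKO), against 7.90% of the 12387 other genes. Mmab and Mvk had the smallest and second smallest p in that window and ranked 3 and 4 by log2 difference. Insig1 and Cyp51 are also on chromosome 5, at 103.4 and 127.3 Mb from Auts2. Whether sequence flanking the floxed allele bears on Mvk and Mmab was not tested.

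**Figure D3:**
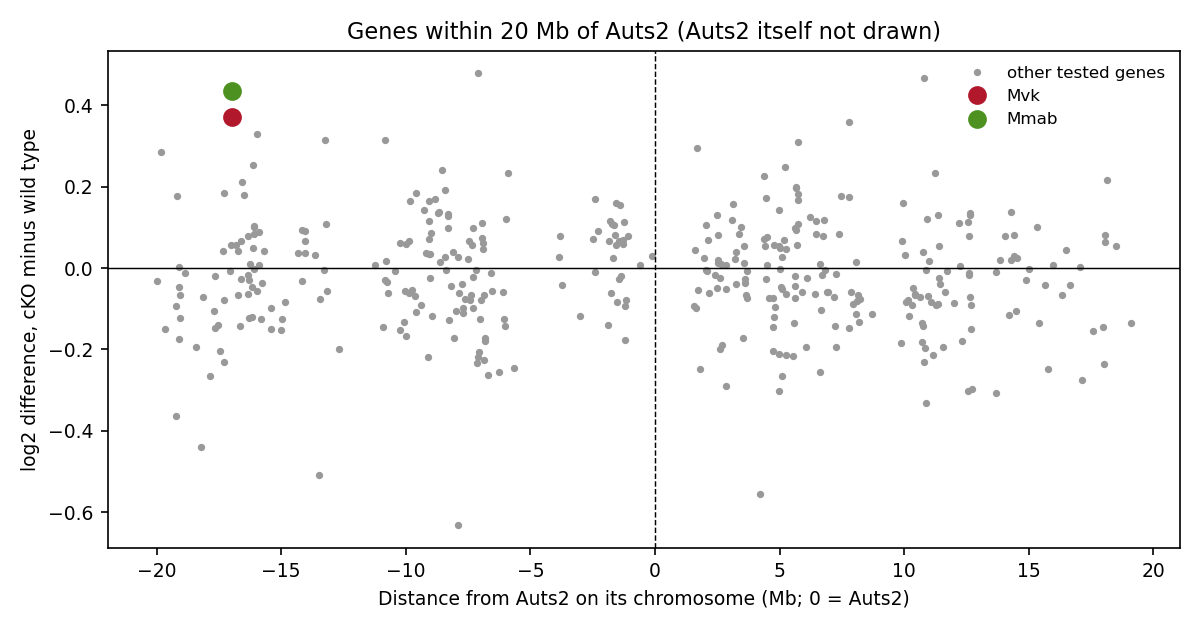
Each point is a tested gene within 20 Mb of Auts2, by its distance from Auts2 (x axis, Mb) and its log2 difference between cKO and wild type frontal cortex (y axis). Mmab (0.44) and Mvk (0.37) stand together near -17.0 Mb among neighbours that scatter around 0.

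Marker sums of the cell types that make or use cholesterol overlapped between cKO and wild type. Astrocyte markers had 3 of 6 tested genes positive and summed to 76.7 to 88.9 FPKM in cKO and 75.9 to 89.9 in wild type. Oligodendrocyte lineage markers had 6 of 7 positive, with sums of 53.8 to 68.3 and 51.3 to 69.7 FPKM, and radial glia markers 4 of 7, with sums of 379 to 443 and 361 to 439 FPKM. None of these markers was called, and none was listed at 0 in every library. Of 74 further genes of the pathway, in lists of other synthesis, SREBP control, fatty acid, transport and isoprenoid genes, 66 were tested and 0 called with limma, with 4 higher and 0 lower at an unadjusted p under 0.05 and a median log2 difference of 0.0029. Erg28, a scaffold of sterol demethylation, had the smallest p of them, at 24.6 ± 1.41 FPKM in cKO and 19.8 ± 2.39 in wild type. The 11 fatty acid synthesis genes, driven by SREBP1 in liver, had a median of 0.02.

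In the AUTS2 pull-down, sterol genes were found on both sides of IgG. By limma, 3 of 34 were called higher in RIP, where 13.7% of all 14570 genes were, and 2 lower, where 9.69% were. The members' shares, 8.82% and 5.88%, were below those of all genes. Lss, lanosterol synthase, stood at 20.3 and 20.5 FPKM in RIP A and B and at 11.7 and 11.4 FPKM in IgG A and B. The replicates were nearly equal and the groups far apart, with a log2 difference of 0.77 ± 0.15 (adjusted p = 0.0154). Srebf1 stood at 28.1 and 26.5 FPKM in RIP and at 7.54 and 16.1 FPKM in IgG, so its IgG libraries disagreed by more than its RIP libraries, with a log2 difference of 1.23 ± 0.32 (limma, adjusted p = 0.037). Abca1 stood at 22.8 and 23.5 FPKM in RIP and at 15.1 and 14.9 FPKM in IgG, a log2 difference of 0.59 ± 0.14 (limma, adjusted p = 0.0274).

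The called genes below IgG were Insig1 and Msmo1. Insig1 stood at 9.97 and 10.7 FPKM in RIP and at 18.8 and 21.4 FPKM in IgG, a log2 difference of -0.89 ± 0.16 (limma, adjusted p = 0.0127). Msmo1 stood at 24.0 and 22.7 FPKM in RIP and at 35.3 and 35.1 FPKM in IgG, a log2 difference of -0.57 ± 0.12 (limma, adjusted p = 0.0215). The next by p was Soat1, at 7.39 and 9.35 FPKM in RIP and 13.3 and 13.5 FPKM in IgG (limma, adjusted p = 0.0574). Mmab stood at 3.23 and 4.27 FPKM in RIP and 7.30 and 6.76 FPKM in IgG, a log2 difference of -0.77 ± 0.23 (limma, adjusted p = 0.0579). Mvk, at 4.12 and 7.36 FPKM in RIP and 6.84 and 6.58 FPKM in IgG, overlapped between the groups. As groups, synthesis had a median log2 difference of -0.20 with 7 of 18 positive, handling 0.13 with 4 of 8 and the regulators 0.26 with 4 of 6, against 0.02 for all genes. Leaving out RIP B turned the synthesis median to 0.06.

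Against input too, members lay on both sides, in shares no larger than those of all genes. The input comparison uses the same RIP libraries as the IgG comparison, so the comparisons are not independent. With limma, 4 of 34 members were called higher, where 19.3% of all 14458 genes were, and 5 lower, where 16.6% were; the members' shares were 11.8% and 14.7%. Srebf1 stood at 28.6 and 27.0 FPKM in RIP and at 14.2 and 12.7 FPKM in input, a log2 difference of 1.00 ± 0.14 (adjusted p = 0.00441). Srebf2 stood at 62.1 and 58.4 FPKM in RIP and at 37.0 and 42.2 FPKM in input, a log2 difference of 0.59 ± 0.12 (limma, adjusted p = 0.0123). Nr1h2 stood at 18.9 and 17.1 FPKM in RIP and at 8.12 and 10.9 FPKM in input, a log2 difference of 0.86 ± 0.19 (limma, adjusted p = 0.0181). In all 3 regulators both RIP libraries exceeded both input libraries, as they did in 5188 of all 14458 genes. Abca1, at 23.2 and 23.9 FPKM in RIP and 14.7 and 16.5 FPKM in input, was the only handling gene called higher, by 0.57 ± 0.14 (limma, adjusted p = 0.0258).

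Lower than input were Msmo1, Insig1, Hmgcs1, Idi1 and Npc2. Msmo1 stood at 24.5 and 23.1 FPKM in RIP and at 48.2 and 46.9 FPKM in input, a log2 difference of -0.97 ± 0.11 (limma, adjusted p = 0.0025). Insig1 had the largest fall of the 34, with 10.1 and 10.9 FPKM in RIP and 25.2 and 29.8 FPKM in input, or -1.30 ± 0.16 (limma, adjusted p = 0.0027). Both were also below IgG. Hmgcs1 stood at 59.0 and 48.3 FPKM in RIP and at 93.4 and 80.3 FPKM in input, a log2 difference of -0.69 ± 0.14 (limma, adjusted p = 0.0137). Idi1 stood at 4.86 and 4.47 FPKM in RIP and at 9.22 and 12.3 FPKM in input, a log2 difference of -1.04 ± 0.21 (limma, adjusted p = 0.0143). Npc2, the luminal partner of NPC1 in lysosomes, stood at 5.01 and 7.38 FPKM in RIP and at 12.2 and 12.7 FPKM in input, a log2 difference of -0.92 ± 0.22 (limma, adjusted p = 0.0235). All 5 genes had both RIP libraries below both input libraries, as did 5094 of all 14458 genes.

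The remaining 25 members were not called against input. Lss had a log2 difference of 0.36 ± 0.14 (limma, adjusted p = 0.0865). Mmab, at 3.29 and 4.33 FPKM in RIP and 6.29 and 5.74 FPKM in input, had an adjusted p of 0.108 by limma. Mvk stood at 4.19 and 7.47 FPKM in RIP and at 7.35 and 7.37 FPKM in input, so its 2 RIP libraries lay on both sides of the input. Synthesis had a median of -0.33 with 6 of 18 positive, handling -0.09 with 3 of 8 and the regulators 0.29 with 3 of 6, against -0.02 for all genes. With the trio as a block, Npc1, Sc5d and Stard4 were called as well (limma, adjusted p = 0.0321, 0.0355 and 0.0397), and against IgG Hmgcs1 and Npc1 were (0.0451 and 0.0369).

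**Figure D4:**
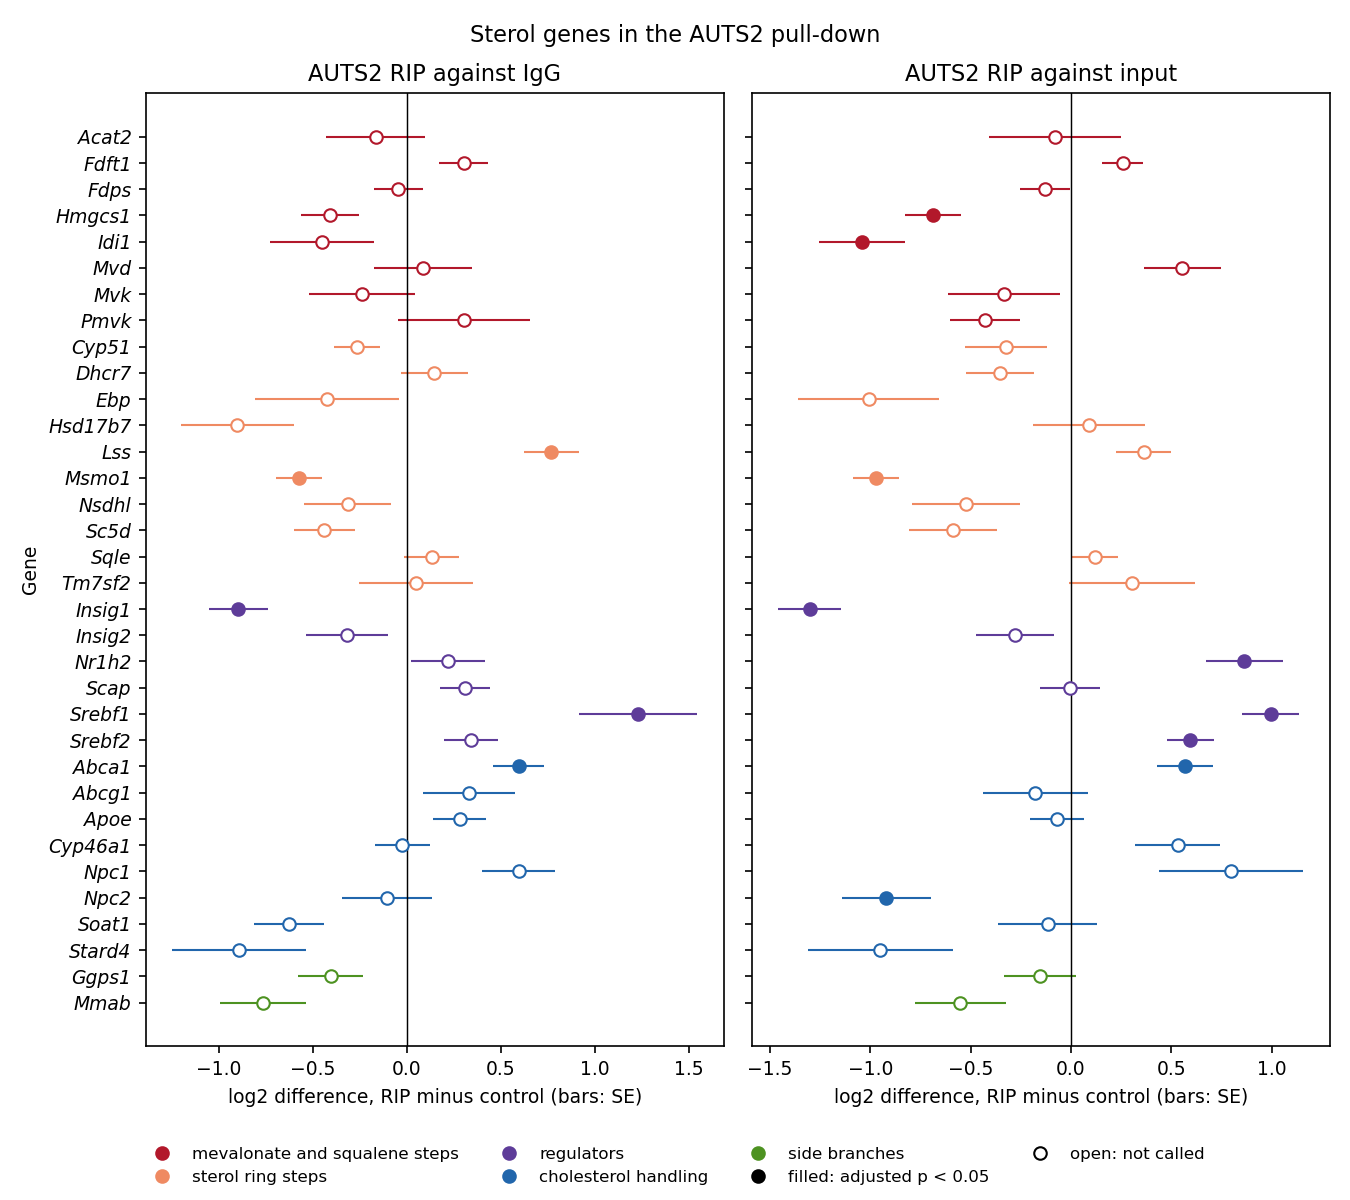
Each row is a gene, coloured by role; points are log2 differences of the AUTS2 RIP from IgG (left) and from input (right), bars are standard errors with 2 libraries a group, and filled points were called at an adjusted p under 0.05. Insig1 and Msmo1 lie left of 0 and Srebf1 and Abca1 right of it, filled in both panels.

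The members differed in transcript length and base composition, and their values moved when trends with these were removed. Synthesis genes had a median transcript length of 2169 bases in the IgG comparison against 2395 for all genes, handling genes 3651, and Abca1 10260 bases. The regulators were GC-rich, at a median of 58.4% against 49.9%. After trends with length and GC were removed from every gene, 2 members were called against IgG, Insig1 (-0.83, limma, adjusted p = 0.0207) and Mmab (-0.94, 0.0442), and 4 against input. Those 4 were Insig1 (-1.20, limma, adjusted p = 0.0067), Msmo1 (-0.56, 0.0188), Npc2 (-1.01, 0.0265) and Mmab (-0.84, 0.0495). Under this setting, 1470 of all 14570 genes were called higher and 966 lower against IgG. Against input, 1968 of 14458 were called higher and 1818 lower. Every member called higher in RIP in the main test lost its call, but not its difference alike. Against IgG, Lss stood at 0.57 (limma, adjusted p = 0.0505), Srebf1 at 0.96 (0.0996) and Abca1 at 0.27 (0.236). Against input, Srebf1 stood at 0.51 (limma, adjusted p = 0.0535), Nr1h2 at 0.56 (0.0890), Abca1 at 0.06 (0.785) and Srebf2 at -0.12 (0.512). The group medians turned as well: the regulators went to -0.05 against IgG and to -0.11 against input, with 2 of 6 positive each time, and the handling genes to -0.07 against IgG. With 1 library left out, Insig1 ran from -0.98 to -0.81 against IgG, Lss from 0.75 to 0.78, Msmo1 from -0.61 to -0.53, Abca1 from 0.57 to 0.62 and Srebf1 from 0.73 to 1.73. No member was called against IgG without RIP A or RIP B, where 457 and 591 of all genes were still called higher and 337 and 445 lower; without IgG A no gene of any kind was called, so that omission gives no test of the members. Against input, Insig1 and Msmo1 alone stayed called under each of the 4 omissions.

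The values also rest on different isoforms in different tables. In frontal cortex, protein-coding transcripts carried 90.6% to 92.2% of the members' FPKM, against 87.5% to 88.0% over all genes tested, and 80.3% to 85.5% against 61.4% to 71.9% in the pull-down. For Lss they carried 30.2% to 46.7% in frontal cortex but 0 to 14.4% in the pull-down tables, where retained-intron transcripts held most of it, so its pull-down value is mostly that of non-coding isoforms. Mvk in RIP A, its low library, had 6.85% of its FPKM in coding transcripts and in RIP B 63.2%. Msmo1 had 31.3% to 62.6% in the pull-down tables and Srebf1 44.7% to 89.4%, while Abca1 had at least 84.8% and Hmgcs1 and Mmab 100% throughout. With protein-coding transcripts alone, 8 members were called against IgG, adding Apoe, Mmab, Npc1 and Stard4 and losing Lss, which was not tested there. Of all 11541 genes tested in that way, 2086 were called higher and 1025 lower.

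Markers of glia and blood cells differed in level between the pull-down libraries. Oligodendrocyte lineage markers summed to 90.7 and 97.7 FPKM in RIP against 68.9 and 74.2 in IgG, with 5 of 7 positive, and astrocyte markers to 101 and 112 against 119 and 126, with 3 of 6 positive. Against input, red blood cell markers summed to 19.1 and 39.3 FPKM in RIP and 67.0 and 77.3 in input, with 0 of 4 positive. Oligodendrocyte lineage markers summed to 92.1 and 99.5 FPKM in RIP and 61.2 and 69.1 in input, with 4 of 7 called higher and 1 lower, and radial glia markers to 275 and 289 against 389 and 433, with 5 of 7 positive and 1 called lower. Neuronal markers had 3 called higher and 3 lower of 8 against input, and microglial markers 1 of 6 positive in both comparisons. No list had a marker at 0 in every library, and the part of these cells in the sterol gene values was not tested. Of the 74 further pathway genes, 8 were called higher and 9 lower than IgG, and 13 higher and 12 lower than input, of 68 tested each time. Those shares, 11.8% and 13.2% against IgG and 19.1% and 17.6% against input, lay near the shares of all genes given above. The transporter Abca2 stood at 39.1 and 39.6 FPKM in RIP and 16.8 and 18.2 in IgG, the receptor Lrp1 at 355 and 284 against 162 and 177, and the fatty acid elongase Elovl6 at a mean of 11.3 against 27.3. Against input, Lrp1, Abca2 and Gramd1a, a sterol transfer protein, had the smallest p, with log2 differences of 1.67, 1.59 and 1.09 (limma, adjusted p = 0.00091, 0.00099 and 0.00109).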

How the data were processed

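RNA abundance was measured in 14 libraries: 4 wild type and 4 Auts2 cKO frontal cortex, made with a TruSeq kit after polyA selection, and 2 each of AUTS2 RIP, IgG and input, made from total RNA with SMARTer stranded chemistry, per the labels' protocols. The deposited values are FPKM per GENCODE vM14 transcript, per the file headers; STAR 2.5, SAMtools, Cuffdiff 2.2.1 and GRCm38.p4 (mm10) are named in the submitters' processing notes. Not given in the sources used here are filters, the strand setting and how libraries were scaled, so reads of overlapping genes on the other strand (12 members have such a neighbour, such as Rai1 at Srebf1) cannot be told apart. Depth is unknown, which limits precision; the labels call the libraries biological replicates. The library cKO 4 was matched to its column by library number.

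Transcripts were summed per symbol through GENCODE vM21 identifiers (127975 of 128508 matched). Each of the 3 tables was tested by itself on log2(FPKM + 1), for genes averaging 1 FPKM or more, with limma 3.58.1 in R 4.3.3 (trend, robust, two-sided) and Benjamini-Hochberg adjustment over all genes at 0.05. Differences on this scale understate those of low genes. The fit was tested on simulated data. Tables and figures used Python 3.11.15, pandas 2.3.3, numpy 2.4.6 and matplotlib 3.10.9. The series design calls RIP, IgG and input matched trios, so A and B pair them; deviations from group means of same-lettered libraries correlated at r = 0.0088 (IgG) and 0.012 (input). The members and all lists were chosen with earlier results of these data known. Values per library are given for Mvk, Mmab and called members, or the 6 smallest p where fewer than 6 were called, with at most 3 further pathway genes a comparison. A few genes selected this way are not reported. Alternatives were another pseudocount, filter, scaling, limma setting or transcript class, the block, Xist state, length and GC trends, and leaving out each library.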

Additional observations from a re-analysis of the deposited data

Results flagged for a closer look

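With 4 libraries a group, 66 group values of the members were examined for a library far from the other 3, and chance flags about 5% of groups. Those found were Fdps in cKO 4, at 89.91 FPKM below 103 to 105 in the others; Abcg1 in wild type 1, at 2.965 FPKM above 2.69 to 2.73; Abcg1 in cKO 4, at 3.176 FPKM above 2.49 to 2.55; and Ggps1, geranylgeranyl diphosphate synthase, in cKO 2, at 19.39 FPKM below 22.6 to 23.1.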

How the results depend on the processing

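In frontal cortex, 0 members were called under every alternative run, the replicate block included, which paired samples that share only a number (r from -0.039 to 0.18). Of 624 values, 613 kept their side or moved by less than their spread, and 0 were classed as reversed. Some members near 0 did change sign: Apoe kept its sign in 12 of 19 alternatives, Ggps1 in 13 of 19 and Soat1 in 12 of 18. Of the synthesis genes Ebp alone changed sign, to -0.02 with wild type 3 and 4 alone as control. The synthesis median ran from 0.24 to 0.37 and the handling median from -0.05 to 0.05 with a library left out. Of the alternatives, wild type 3 and 4 alone as control, added after seeing the data, moved the synthesis median beyond the spread, to 0.11.

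Against IgG, the 5 calls became 3 without a filter, 2 without limma's trend and robust settings, 8 with coding transcripts alone, 2 with length and GC trends removed, 7 with the trio as a block, and 7 at a mean of at least 5 FPKM (adding Npc1 and Soat1) or with median-ratio rescaling (adding Mmab and Soat1). Quantile normalization also gave 5, with Cyp51 and Hmgcs1 in place of Abca1 (adjusted p = 0.0598) and Srebf1 (0.0636). Of all 14555 genes, 1382 were called higher and 1363 lower with that normalization. Member calls were 0 to 1 with a library left out, where 0 to 1189 of all genes were called higher and 0 to 617 lower. The handling median became 0.0342 with median-ratio rescaling, 0.0349 with quantile normalization and -0.0720 with length and GC trends removed; the synthesis median ran from -0.266 to 0.0601 and the handling median from 0.08 to 0.19 with a library left out. Against input, the 9 calls became 4 with length and GC trends removed, 12 with the paired block and 2 to 8 with a library left out. Of all genes, 2814 were called higher and 2408 lower with the block. With a library left out, 780 to 2152 were called higher and 615 to 1414 lower. The synthesis median became -0.20 with coding transcripts and -0.19 with those trends removed, and ran from -0.38 to -0.17 with a library left out; the handling median became 0.23 at a mean of at least 5 FPKM and 0.14 with coding transcripts, and ran from -0.16 to 0.12. Srebf2 reversed against input, to -0.12 (adjusted p = 0.512), with those trends removed; the cause was not tested. With the depth unknown, counting error cannot be set for any gene; members averaging under 5 FPKM in a group, besides Mvd at 0, were Ebp, Abcg1 and Soat1 in frontal cortex and Hsd17b7, Ebp, Stard4, Mmab, Nsdhl, Abcg1 and Idi1 in the pull-down.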
